A study of Mus musculus with 6 samples.

Results

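In primary cardiac fibroblasts of the mouse, 6288 chromatin regions carried a dense CUT&Tag signal in every library of the T set, the 3 libraries whose labels carry the letter T. They were selected on the signal itself. Regions of the 2 deposited T set tables were joined where they overlapped by at least 1 bp, with mitochondrial DNA left out, and a joined region was kept if its normalized read density was 7.5 or more in both libraries of both tables. The 6288 members were 10.7% of the 58627 joined regions, and the first and the second table held 170890 and 180118 regions. The densities and the ratios built from them therefore describe the members and carry no test, whereas the annotation, the promoter sequence and the S set libraries played no part in the choice.

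The series held 6 libraries, of which the T set and the S set each made up 3, with 1 library per treatment. All came from primary cardiac fibroblasts of mouse heart, and the T set was made of an NC control, TGF-b alone and TGF-b+SiTAZ. In the S set the siRNA treatment was TGF-b+SiSRF. The label names TAZ as the siRNA target while the text of the study describes an siRNA against Piezo2, so the library is called the siRNA library here. A series description also speaks of Tet3 deleted by a Cre virus before TGF-β, which no sample label mentions. The antibody is not in the labels either, and the letters T and S are only presumed to stand for the TAZ and SRF antibodies of the study's methods. With 1 library per treatment no ratio has a replicate check, so intervals below cover counting error only, and reads without molecular identifiers are not independent molecules.

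TAZ, the product of Wwtr1, is a transcriptional coactivator that has no DNA-binding domain of its own and reaches chromatin mainly through TEAD factors, often together with AP-1. It is restrained by the Hippo kinases and becomes nuclear in spread or stretched cells. TGF-b is the cytokine that turns cardiac fibroblasts into contractile, matrix-producing myofibroblasts, and SRF is a factor that binds the CArG box of cytoskeletal and immediate early genes. CUT&Tag uses an antibody to tether a transposase, so that tagged fragments pile up where the target sits.

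The promoters of several members are shown first, because promoters were the class in which members were most frequent. The sequences are those of RefSeq on GRCm38.p6, the 250 bases before the annotated start, read 5′ to 3′ on the strand of the gene. The files place their regions on another build, GRCm39 per the study's methods, so the windows mark the promoter of the gene and not the member itself. Ankrd1 and Vcl are shown as promoters of a TAZ target and an SRF target. Capitals mark CATTCC, the core of the TEAD motif, on either strand, and in Vcl also the CArG box.
Ankrd1: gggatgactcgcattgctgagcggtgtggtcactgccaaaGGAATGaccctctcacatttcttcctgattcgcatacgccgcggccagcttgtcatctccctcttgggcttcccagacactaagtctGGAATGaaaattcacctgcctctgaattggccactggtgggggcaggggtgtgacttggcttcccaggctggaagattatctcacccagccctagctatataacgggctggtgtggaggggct
Vcl: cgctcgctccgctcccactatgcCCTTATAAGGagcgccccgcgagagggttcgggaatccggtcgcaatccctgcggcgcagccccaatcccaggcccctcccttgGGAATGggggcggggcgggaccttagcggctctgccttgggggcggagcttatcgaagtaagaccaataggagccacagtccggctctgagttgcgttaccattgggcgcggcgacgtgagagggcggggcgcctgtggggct

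The Ankrd1 window, chr19:36119845-36120094 on the minus strand, held 2 TEAD cores, and the Vcl window, chr14:20929148-20929397 on the plus strand, held 1 TEAD core and 1 CArG box. The next promoters belong to 3 dense members at gene starts, not the 3 densest (Rab40c, Hdgfl2, Fzr1), to the member with the highest TGF-b over NC ratio (Ski) and to a member with nearly equal density in all libraries (Ergic3). Capitals here mark GGGCGG on either strand, the core that SP and KLF factors bind.
Rab40c: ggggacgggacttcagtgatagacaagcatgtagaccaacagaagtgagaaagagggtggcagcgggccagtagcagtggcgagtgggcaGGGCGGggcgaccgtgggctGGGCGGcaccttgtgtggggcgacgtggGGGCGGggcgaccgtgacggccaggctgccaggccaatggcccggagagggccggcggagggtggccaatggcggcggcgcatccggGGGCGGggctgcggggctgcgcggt
Hdgfl2: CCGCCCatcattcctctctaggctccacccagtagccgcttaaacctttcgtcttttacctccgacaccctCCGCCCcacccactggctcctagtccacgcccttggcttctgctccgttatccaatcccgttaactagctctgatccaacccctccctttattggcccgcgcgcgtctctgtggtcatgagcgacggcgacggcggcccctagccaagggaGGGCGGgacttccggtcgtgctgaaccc
Fzr1: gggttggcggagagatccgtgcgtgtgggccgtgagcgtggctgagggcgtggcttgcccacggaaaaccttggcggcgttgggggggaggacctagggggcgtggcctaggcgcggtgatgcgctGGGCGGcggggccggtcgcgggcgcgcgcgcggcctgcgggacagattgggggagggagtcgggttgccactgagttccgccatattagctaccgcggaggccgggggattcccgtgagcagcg
Ski: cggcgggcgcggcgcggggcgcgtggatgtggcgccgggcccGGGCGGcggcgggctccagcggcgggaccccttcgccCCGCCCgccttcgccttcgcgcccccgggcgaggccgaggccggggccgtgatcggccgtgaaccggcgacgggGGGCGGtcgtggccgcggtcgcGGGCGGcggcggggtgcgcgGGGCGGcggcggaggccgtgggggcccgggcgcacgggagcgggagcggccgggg
Ergic3: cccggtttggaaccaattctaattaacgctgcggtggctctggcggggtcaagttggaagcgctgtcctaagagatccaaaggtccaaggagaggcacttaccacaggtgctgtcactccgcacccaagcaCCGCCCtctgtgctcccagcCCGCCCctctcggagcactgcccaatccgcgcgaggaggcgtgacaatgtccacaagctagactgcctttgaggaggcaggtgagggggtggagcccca

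These 5 windows lie at chr17:25919715-25919964 on the minus strand (Rab40c), chr17:56079381-56079630 on the plus strand (Hdgfl2), chr10:81378371-81378620 on the minus strand (Fzr1), chr4:155222536-155222785 on the minus strand (Ski) and chr2:156007778-156008027 on the plus strand (Ergic3). The SP/KLF core occurred 5 times in the Ski window, 4 times in that of Rab40c, 3 times in that of Hdgfl2, 2 times in that of Ergic3 and 1 time in that of Fzr1. G and C made up 87.6% of the Ski window, 72.4% of the windows of Rab40c and of Fzr1, and 55.6% of the Ankrd1 window. The Hdgfl2 window also held 1 TEAD core and 1 CArG box, left in lower case here.

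The density of a member was set by a modest number of reads. The deposited density could be turned back into whole reads per 2 kb window, as described with the processing. The median member held 33, 36 and 24 reads in NC, TGF-b and siRNA, against 5, 9 and 3 reads in the 52339 joined regions that were not members. No member held fewer than 15, 17 and 12 reads in these libraries. Reads are printed as counted, without scaling to the unknown total depth of a library, and ratios are those of the deposited densities. The interquartile range spanned 23 to 48, 25 to 52 and 17 to 35 reads. Members were called as peaks in both libraries of both tables in 2984 cases (47.5%), against 7.41% of all joined regions, and 5724 members (91.0%) were called in the TGF-b library in both tables, close to the 90.6% of all joined regions. Another 560 members were called only in NC in the first table and only in siRNA in the second (8.91%, against 9.45% of the other joined regions). Members were wider than other joined regions, with a median of 237 bp against 149 bp.

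Members gathered at gene starts. In the authors' annotation 2476 members (39.4%, Wilson 95% interval 38.2 to 40.6%) lay in a promoter within 1 kb of a transcription start site (TSS), against 6.90% of the other joined regions. This class held only regions at or upstream of the start, and those just downstream were annotated as 5′ UTR, exon or intron. A further 430 members (6.84%) lay in a 5′ UTR, against 1.53%. Introns held 1686 members (26.8%, against 43.4%), and 1198 members (19.1%, against 40.2%) had no assigned gene. Exons held 273 members (4.34%, against 3.51%), promoters at 1 to 2 kb 94, downstream regions 67 and 3′ UTRs 64. Seen from the regions, 40.7% of all joined promoters within 1 kb were members, whereas 6.90% of joined intronic regions and 5.39% of those with no gene were. Denser members were more often promoters. In 4 groups of 1572 members, ordered from the lowest to the highest density, promoters within 1 kb made up 29.5%, 34.2%, 43.0% and 50.9%, and regions with no gene 23.7%, 21.8%, 16.5% and 14.3%.

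**Figure D1:**
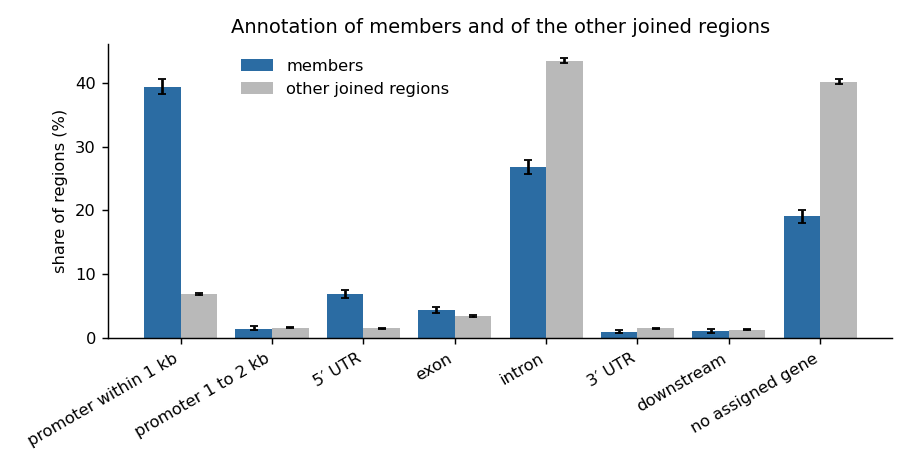
Share of the 6288 members (blue) and of the 52339 other joined regions (grey) in each annotation class, in percent, with Wilson 95% intervals as error bars. Promoters within 1 kb hold 39.4% of members and 6.90% of the other regions, and introns and regions with no gene show the opposite order.

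The distance to the assigned start repeated this. Of the 5090 members with a gene, 2751 (54.0%) lay within 250 bp of the start, against 12.5% of the other joined regions with a gene, and the median distance was 191 bp against 10835 bp. Upstream positions prevailed, with 2123 of these members (41.7%) at 1 to 250 bp before the start and 612 at 1 to 250 bp after it. Most members annotated as exonic were also near a start, since 72.2% of the 273 lay within 1 kb of a start, against 34.1% of the other exonic regions. Intronic members were mostly distal, with 14.5% within 1 kb, although their median distance of 11010 bp was shorter than the 18970 bp of the other intronic regions. Counted without classes, 944 members (18.5% of those with a gene) lay more than 10 kb from a start.

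**Figure D2:**
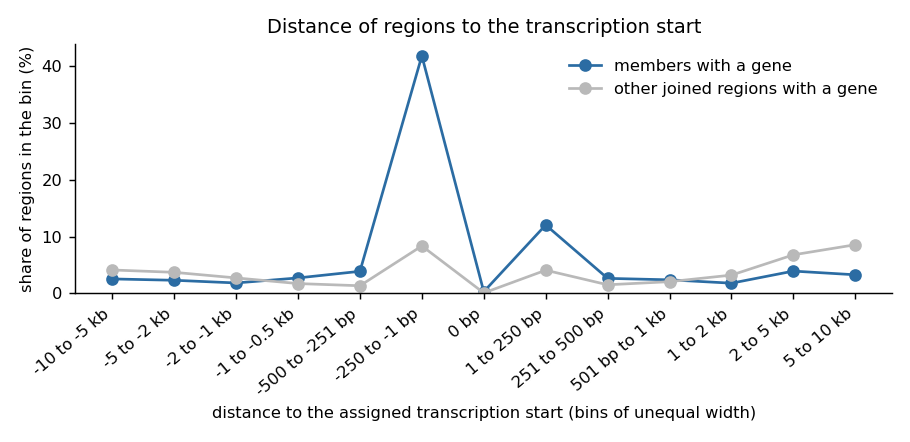
Share of members with a gene (blue) and of other joined regions with a gene (grey), in percent, by distance to the assigned transcription start, with negative distances upstream and bins of unequal width. The members peak in the 250 bp upstream of the start, and the other regions stay low throughout.

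Members fell on 4104 of the 16282 genes with any joined region, and 2382 genes (14.6%) had a member at their promoter, counting both promoter classes. Genes with a member only just downstream of the start, such as Amotl2 at 18 bp and Smad2 at 129 bp, are not among the latter. Component terms were deposited for 2023 of the genes with a promoter member and for 3144 of the 3985 genes with a joined promoter region but no promoter member. Among genes with any term the nucleus term was more frequent in the former, 43.5% (41.4 to 45.7%), than in the latter, 35.0% (33.4 to 36.7%). The cytosol term stood at 33.0% against 25.3% and the mitochondrion term at 13.1% against 10.7%. The opposite order held for the extracellular region, 3.31% against 7.0%, and for the extracellular matrix, 0.297% against 1.24%. Over all genes of each kind, with or without a term, transcription factor families were assigned to 7.43% and 5.72%. These terms were picked after the data had been seen.

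Chromosomes differed in how many of their joined regions were members. On the autosomes 10.8% of joined regions were members, from 8.80% on chromosome 16 to 16.4% on chromosome 19. On the X chromosome 44 of 1137 joined regions were members, 3.87% (2.90 to 5.16%). The lower share on X also held within promoters, where 19.3% (13.2 to 27.3%) of 119 joined promoters within 1 kb were members, against 41.1% (39.8 to 42.3%) on the autosomes. A further 28 members lay on unplaced scaffolds.

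Member promoters were rich in CpG. RefSeq promoters of 300 bases, 250 before the start and 50 after, were matched for 1697 of 2023 protein-coding genes with a member within 1 kb (83.9%) and for 2234 of 2739 coding genes with a joined promoter region but no promoter member (81.6%). Genes with several starts gave several promoters, so the shares below count 2218 and 2878 promoters. Not every one of these starts need carry the member, and the intervals treat promoters of a gene as independent. The median GC content was 63.3% (62.7 to 63.7%) in the member promoters, 60.7% (60.3 to 61.0%) in the comparison promoters and 56.3% over all 21263 coding promoters. The ratio of observed to expected CpG had medians of 0.774, 0.742 and 0.567. It reached 0.6, a usual mark of CpG islands, in 77.2%, 67.4% and 47.7%. 

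Short motifs were then counted in the same windows on both strands, as letters and not as bound sites. The TEAD core CATTCC was present in 12.1% (10.8 to 13.6%) of member promoters, 11.6% (10.5 to 12.9%) of comparison promoters and 13.6% of all coding promoters. AP-1, as TGANTCA, was present in 5.28%, 5.18% and 6.99%, and the CArG box in 1.31%, 1.25% and 1.52%. The core GGGCGG was more frequent in member promoters, 73.4% (71.5 to 75.2%) against 63.7% (62.0 to 65.5%) and 46.2%. The CCAAT box, bound by NFY, stood at 49.5% (47.5 to 51.6%) against 40.5% (38.7 to 42.3%) and 38.2%. The ETS core CCGGAAG was at 15.4%, 15.6% and 11.6%. The NRF1 motif GCGCATGCG was found in 3.65%, 3.75% and 2.35% of these promoters, the YY1 motif AAGATGGCG in 2.30%, 3.02% and 1.83%, the cAMP response element TGACGTCA in 2.66%, 2.95% and 2.23%, and the E-box CACGTG in 8.70%, 10.2% and 7.84%. TATAAA was found in 5.68%, 6.46% and 12.6%. GGGCGG and CCAAT were thus the motifs whose intervals in member promoters lay above those of the comparison promoters.

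The TGF-b library was compared with NC in the first table. The table's background was 17.3% of 170890 regions with a density at least 2-fold higher under TGF-b and 42.1% with one at least 2-fold lower. Among the members 654 (10.4%) were at least 2-fold higher and 366 (5.82%) at least 2-fold lower, and since the rule chose them on these densities nothing is read from that difference. The median log2 ratio of density was 0.17 (95% rank interval 0.15 to 0.18) in members, while the median of all regions of the table was -0.65. The zero of this scale was set by the authors' normalization, which moves all regions of a table together. Centred on the table's median instead, 38.8% of members were at least 2-fold higher and 0.604% lower. Differences between classes of members do not depend on that shift, but the sign of a median near 0 does. Promoters within 1 kb had a median of 0.38 (0.35 to 0.41), with 390 members (15.8%) higher and 43 (1.74%) lower. In 5′ UTRs the median was 0.35 (0.30 to 0.43), with 73 higher and 4 lower. Introns had a median of -0.06 (-0.09 to -0.02), with 81 higher and 154 lower, and regions with no gene had one of -0.09 (-0.15 to -0.03), with 60 higher and 134 lower. In reads, promoter members held a median of 32 in NC and 43 in TGF-b, against 33 and 30 in members with no gene.

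The siRNA library was compared with the TGF-b library in the second table, and since both comparisons share the TGF-b library their values are given side by side only. The background there was 49.7% of 180118 regions with a density at least 2-fold higher under siRNA and 16.2% with one at least 2-fold lower, and the median of all regions was 0.97. Among members 418 (6.65%) were higher and 503 (8.0%) lower, again with no reading against the table. Centred on the table's median these shares were 0.223% and 51.9%, and with the authors' line undone 1.72% and 27.1%. The median log2 ratio was -0.06 (-0.09 to -0.04) over all members. In promoters within 1 kb it was -0.19 (-0.22 to -0.16), with 96 members higher and 274 (11.1%) lower, and in 5′ UTRs -0.25 (-0.34 to -0.16). In introns it was 0.04 (0.01 to 0.08) and in regions with no gene 0.09 (0.05 to 0.14), both below 0 when centred. Of the members with no gene 118 (9.85%) were higher and 42 lower. Promoter members thus sat 0.46 above members with no gene for TGF-b over NC, and 0.28 lower for siRNA over TGF-b, on the log2 scale. The other joined regions had the reverse order in both comparisons, and for siRNA over TGF-b their medians were -0.96 in promoters and -1.14 with no gene. The rule on these densities set both groups apart, so no order for promoters at large is read from either. With the authors' line undone, and reads compared directly, these differences were 0.51 and -0.29.

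Within the members, the GC content of the promoter moved with both ratios. Over 1320 coding genes with a promoter member and a single RefSeq promoter, split in 4 groups of 330 by GC content, the median log2 TGF-b over NC ratio was 0.28 (0.21 to 0.36), 0.37, 0.40 and 0.48 (0.41 to 0.60) from the poorest to the richest group. The median log2 siRNA over TGF-b ratio was -0.12 (-0.17 to -0.03), -0.15, -0.21 and -0.32 (-0.41 to -0.18). The rule chose the members on the densities behind these ratios, and the trend was not computed in other joined promoters. The part of GC content in the library differences was not tested. Promoters with the TEAD core, 162 of the 1320, had medians of 0.43 (0.32 to 0.56) and -0.29 (-0.39 to -0.11), and those without it 0.38 (0.33 to 0.42) and -0.17 (-0.22 to -0.14), so that the intervals overlapped.

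The S set libraries, which the rule did not use, were read at the same places. A region of the S set table of NC and TGF-b overlapped 1946 members (30.9%, 29.8 to 32.1%), against 5.01% of the other joined regions, and a region of the S set table of TGF-b and siRNA overlapped 2726 (43.4%, 42.1 to 44.6%), against 6.89%. Promoters within 1 kb were met most often, in 45.6% and 61.9%, against 18.1% and 28.7% of the other joined promoters within 1 kb. The contrast within promoters was thus smaller than that over all classes. Introns were met least often among the large classes, in 14.8% and 23.5%. At these members the S set density with TGF-b was above NC, with a median log2 ratio of 0.39 (0.35 to 0.44), against -0.20 over all S set regions of that table. By class the S set medians were 0.53 (0.50 to 0.57) in promoters within 1 kb, 0.55 (0.37 to 0.67) in 5′ UTRs, -0.04 (-0.17 to 0.11) in introns and -0.22 (-0.32 to -0.12) in regions with no gene. For TGF-b over NC the members had, in both sets of libraries, higher medians in promoters than in regions with no gene. In the other joined regions the S set had the same order, 0.43 against -0.39, whereas the T set had the reverse, 0.86 in promoters and 1.17 in regions with no gene, so that the T set order held for the members, which were chosen on these densities, and not for the rest. For siRNA over TGF-b the S set medians were 0.16 (0.12 to 0.20) in promoters and 0.17 (0.08 to 0.27) in regions with no gene, whose intervals overlap, and 0.29 (0.19 to 0.39) in introns. The siRNA carries another name in the S set, and the 2 sets were not tested against each other.

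**Figure D3:**
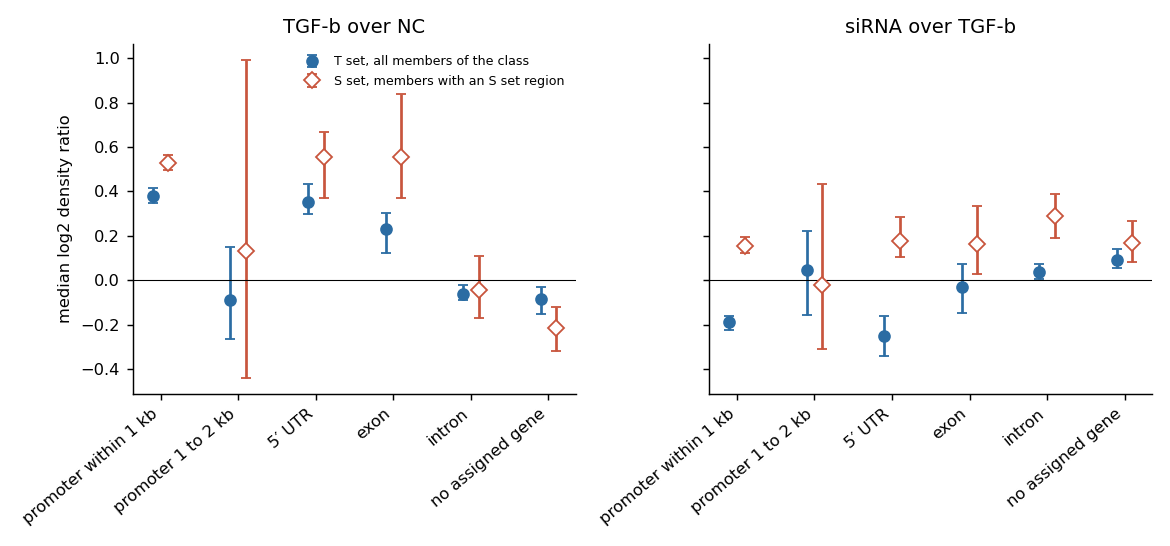
Median log2 ratio of normalized read density by annotation class, TGF-b over NC on the left and siRNA over TGF-b on the right, with 95% rank intervals as error bars (blue, all members in the T set libraries; open red, members with a region in the S set tables, in the S set libraries). For TGF-b over NC both sets place promoters above regions with no gene, and for siRNA over TGF-b the T set medians change sign between these classes while the S set medians do not, a change of sign that is lost when the T set table is centred on its median or the authors' line is undone.

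The very densest members had no gene or lay in introns. A region at chr2:98496918-98497656 held 6547, 4988 and 3776 reads in NC, TGF-b and siRNA, and its neighbour at chr2:98496584-98496661 nearly as many. A region at chr17:13524882-13526508 held 2079, 1546 and 2778 reads, and one at chr13:74676591-74678908 held 1895, 1465 and 2126. Members with a gene began with introns of 2700054A10Rik, at 1369, 866 and 1707 reads, and of Smo, the receptor-like transducer of Hedgehog signals, at 631, 440 and 700. In NC and TGF-b the S set held more reads still at these places. It held 24274 and 20055 at chr2:98496918-98497656, 2231 and 2223 at chr17:13524882-13526508, 1436 and 1111 at 2700054A10Rik, and 649 and 570 at Smo. Such depth was therefore not particular to the T set, and whether it marks occupancy was not tested. In all, 11 members held 500 reads or more in a library, and all 11 had lower density with TGF-b than with NC on the deposited scale. The sign turns at chr3:59952540-59953293, with a log2 ratio of -0.49, when the table is centred on its median of -0.65. Members also formed clusters, as at chr10:3059884-3067033 with 6 members, chr17:40154326-40159274 with 5 and chr14:3050335-3053974 with 5, none of them with a gene. Members within 2 kb of each other share reads, and merging them gave 5465 loci, of which 4720 held 1 member, 680 held 2 and 65 held 3 or more.

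Among the densest members with a gene, chosen after their values had been seen, most lay at promoters. The intron assigned to Chl1, a neural cell adhesion molecule, held 366, 368 and 190 reads in NC, TGF-b and siRNA at chr6:103626102-103626248. The S set held more there, with 1080, 644 and 892 reads. At the promoter of Hdgfl2, a chromatin reader, the reads were 159, 261 and 155 at chr17:56385994-56386611. TGF-b was the highest library there, with log2 ratios of 0.55 (0.27 to 0.84) over NC and -0.24 (-0.53 to 0.04) for siRNA over TGF-b. The promoter of Rab40c, a small GTPase of ubiquitin ligases, held 224, 199 and 148 reads at chr17:26138696-26139307, with NC highest. Fzr1, the Cdh1 activator of the anaphase-promoting complex, held 157, 186 and 144 reads, with ratios of 0.10 (-0.20 to 0.41) and 0.13 (-0.18 to 0.45) that both include 0. Garnl3 held 155, 267 and 157 reads, Wipi1, an autophagy protein, 146, 253 and 205, Ntmt1, an N-terminal methyltransferase, 156, 192 and 140, and Fkbp2 146, 179 and 140. The same places carried S set signal as well, with 23 reads in NC and 58 in TGF-b at Hdgfl2, 9 and 46 at Fzr1, and 35 and 42 at Rab40c. In S set density the log2 TGF-b over NC ratios were 0.77, 1.68 and -0.27, so that Rab40c was lower with TGF-b on the deposited scale, though not in reads. The T set ratio of Rab40c, -0.33 (-0.61 to -0.06), turns positive when centred on the table's median of -0.65.

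The members with ratios nearest 0 among the 1572 densest were near equal in all libraries. Ergic3, a protein of the early secretory pathway, held 50, 51 and 37 reads in NC, TGF-b and siRNA at its promoter (chr2:155849771-155850147), with log2 ratios of 0.00 and 0.03. An intronic member of Sec24b, a COPII coat subunit, held 47, 48 and 34 reads, with ratios of 0.00 and -0.01. Fer, a tyrosine kinase, held 45, 47 and 34 reads, and Mical2, an actin-oxidizing enzyme that feeds SRF signalling, 39, 38 and 26. The siRNA library thus held fewer reads at a like density. The counting interval of the Ergic3 ratio ran from -0.56 to 0.56, which is the precision that this depth gives a single member.

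The highest TGF-b over NC ratio among members under 500 reads was at the promoter of Ski, a co-repressor that restrains SMAD signalling. Its region, chr4:155307526-155307989, held 29, 158 and 41 reads in NC, TGF-b and siRNA. TGF-b held the most reads, as the choice of this member implies, with log2 ratios of 2.35 (1.78 to 2.92) over NC and -1.43 (-1.92 to -0.94) for siRNA over TGF-b. The promoter of Odad1, a ciliary dynein-docking gene, followed with 16, 82 and 71 reads, then those of Mex3c, an RNA-binding ubiquitin ligase, with 15, 74 and 15, and of Fam107b with 16, 77 and 32. The 5′ UTR of Dck, deoxycytidine kinase, held 17, 82 and 20 reads. At Odad1 the siRNA library was close to TGF-b, while at Mex3c and Dck it was close to NC. The lowest ratios were in regions with no gene in 4 of 5 cases, the lowest being chr11:67270881-67271203 with 132, 17 and 24 reads and a log2 ratio of -2.91 (-3.63 to -2.19).

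At the other comparison, the highest siRNA over TGF-b ratio was in an intron of Gm525, with 42, 17 and 91 reads in NC, TGF-b and siRNA and a log2 ratio of 2.83 (2.09 to 3.57). An intron of Bpnt1, a nucleotide phosphatase, held 49, 18 and 63 reads, and 3 regions with no gene completed the 5. The lowest ratio was in an exon of Gm57122, with 45, 113 and 12 reads and a log2 ratio of -2.65 (-3.50 to -1.81). The promoters of Yif1a, a Golgi transport protein, with 61, 77 and 12 reads, and of Abhd11, a mitochondrial hydrolase, with 49, 135 and 23, and an intron of Nmt1, an N-myristoyltransferase, with 51, 91 and 13, were also among the 5 lowest. At the threshold itself, the members just inside were Gm525, a region with no gene and Rasl10a, with lowest densities of 7.62, 7.63 and 7.63, and the regions just outside were Specc1l, Gna12 and Idi1, each at 7.45 with 14 reads in NC.

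Known targets of YAP and TAZ were among the genes with members. Of 25 listed targets 21 had a joined region, 16 a member and 8 a promoter member (38.1%, 20.8 to 59.1%), beside 14.6% over all genes with a joined region. Among targets with a joined promoter these were 8 of 11 (72.7%), beside 37.4% of all genes with a joined promoter. Ccn2, the matricellular growth factor long used as a TEAD readout, had 2 members, and these share reads with each other and with a neighbouring member not assigned to Ccn2. Its exonic member at chr10:24471483-24471791 held 150, 115 and 54 reads in NC, TGF-b and siRNA, and its promoter member at chr10:24471110-24471430 held 109, 96 and 29. The siRNA library was lowest in both, with a log2 ratio over TGF-b of -1.21 (-1.80 to -0.61) at the promoter. Ankrd1, a stretch-responsive ankyrin repeat protein, held 52, 25 and 32 reads at its promoter (chr19:36097169-36097564), so that NC was highest, with a log2 TGF-b over NC ratio of -1.03 (-1.71 to -0.35). The 5′ UTR of Amotl2, an angiomotin that binds YAP, held 64, 84 and 30 reads. Tead1, which encodes a DNA-binding partner of TAZ, held 24, 81 and 31 reads at its promoter, with ratios of 1.69 (1.04 to 2.35) and -0.87 (-1.47 to -0.28). Ptpn14, a phosphatase that retains YAP, held 18, 60 and 30, Birc5, an inhibitor of apoptosis, 19, 43 and 20, and Gadd45b 56, 40 and 27. Ajuba, an adaptor that inhibits LATS kinases, held 47, 22 and 12. Of the 8 promoters 3 were at least 2-fold higher with TGF-b than NC and 2 at least 2-fold lower, beside 353 and 43 of all 2382 genes with a promoter member.

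Among the partners and regulators of TAZ, 5 of 15 genes with a joined region had a promoter member (33.3%, 15.2 to 58.3%), beside 14.6% of all genes. Of those with a joined promoter these were 5 of 9 (55.6%), beside 37.4% of all genes with one. Wwtr1 itself held 41, 65 and 25 reads in NC, TGF-b and siRNA at chr3:57483187-57483491, with log2 ratios of 0.62 (0.06 to 1.18) and -0.86 (-1.52 to -0.20). Vgll3, a TEAD cofactor, held 27, 60 and 44 reads, and Stk3, a Hippo kinase, 27, 57 and 44. Its relative Stk4 held 24, 22 and 32 reads. Tead3 and Vgll4 had members but none at a promoter, with 94, 38 and 23 reads at an intronic member of the former and 72, 102 and 59 at one of the latter.

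SRF targets had a promoter member in 7 of 17 genes (41.2%, 21.6 to 64.0%), beside the 14.6% of all genes with a joined region. These were 7 of the 10 SRF targets with a joined promoter (70%), beside 37.4% of all genes with one. The densest was Zyx, zyxin of focal adhesions, with 107, 182 and 120 reads in NC, TGF-b and siRNA. Vcl, vinculin, held 31, 76 and 36 reads at chr14:20979024-20979503, with log2 ratios of 1.24 (0.64 to 1.84) and -0.57 (-1.14 to -0.01). Cap1, an actin regulator, held 36, 73 and 61, and Actb, beta-actin, 19, 42 and 15. TGF-b held the most reads at each of these 4, but at Cap1 the density in siRNA was above that in TGF-b, with a log2 ratio of 0.23 (-0.26 to 0.72). Tagln, the smooth muscle protein SM22, held 23, 33 and 28 reads, and the 5′ UTR of Tpm1, a tropomyosin, held 42, 24 and 17. The first of these ratios includes 0 at Tagln, 0.52 (-0.23 to 1.28).

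AP-1 and other immediate early genes had a promoter member in 7 of 13 genes, 53.8% (29.1 to 76.8%), against the same 14.6%. These were 7 of the 9 with a joined promoter (77.8%), beside 37.4% of all genes with one. Jun held 29, 69 and 27 reads in NC, TGF-b and siRNA, Junb 39, 74 and 23, and Fosl2 35, 80 and 20. In all 3, subunits of the AP-1 dimer, TGF-b was the highest library, and the log2 siRNA over TGF-b ratios were -0.84, -1.16 and -1.47. Atf3 held 57, 76 and 47 reads, Klf6 33, 45 and 49, Klf10, a TGF-b early gene, 38, 60 and 29, and Klf2 22, 33 and 23. Egr1 had a member in its 5′ UTR with 68, 71 and 22 reads. Of the 7 promoter members 2 were at least 2-fold higher with TGF-b than NC and 0 were at least 2-fold lower, beside 353 and 43 of all 2382 genes with a promoter member, and nothing particular to the list is read from so few.

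Genes of the TGF-b pathway followed by role. Among receptors, Tgfbr1 held 24, 50 and 33 reads in NC, TGF-b and siRNA at its promoter, and Tgfbr2 17, 29 and 20 in its 5′ UTR. Of the signal transducers, Smad2 held 18, 68 and 17 reads in its 5′ UTR, with log2 ratios of 1.86 (1.12 to 2.60) and -1.46 (-2.22 to -0.70), and Smad3 31, 30 and 30 in an intron. Tgfbr2 and Smad3 also had 1 promoter member each. Among the inhibitors, Smad6 held 16, 46 and 41 reads, the ubiquitin ligases Smurf1 and Smurf2 65, 44 and 28 and 36, 29 and 22, and the decoy receptor Bambi 35, 20 and 16. The ligand gene Tgfb1 had an exonic member with 19, 25 and 61 reads, where the siRNA library was highest. Altogether 7 of 19 list genes with a joined region had a promoter member (36.8%, 19.1 to 59.0%), beside 14.6% of all genes. These were 7 of the 11 with a joined promoter (63.6%), beside 37.4% of all genes with one.

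Matrix and cell type lists were short. Of the myofibroblast and matrix genes 3 of 14 had a promoter member (21.4%, 7.57 to 47.6%), an interval that holds the 14.6% over all genes. Only 3 of these genes had a joined promoter, and all 3 had a promoter member, beside 37.4% of all genes with a joined promoter. Timp1, an inhibitor of matrix metalloproteinases, held 50, 19 and 27 reads and Tnc, tenascin, 54, 19 and 12, both with NC highest. Other genes of the list had more reads with TGF-b than with NC. Tagln held 23, 33 and 28 at a promoter member, with a log2 TGF-b over NC ratio of 0.52 (-0.23 to 1.28). Sparc had an intronic member with 24, 41 and 44 and a ratio of 0.76 (0.04 to 1.48). Lox, the collagen cross-linking oxidase, had a 5′ UTR member with 50, 61 and 38. Of the cardiac fibroblast markers 1 of 6 genes with a joined region, Vim, had a promoter member, with 19, 33 and 15 reads, and Ddr2 had an intronic one with 32, 34 and 22. No promoter member was found at markers of other heart cells, at 0 of 1 cardiomyocyte gene, 0 of 6 endothelial genes, 0 of 3 macrophage genes and 0 of 5 smooth muscle and pericyte genes with a joined region, although only 1 endothelial and 1 smooth muscle gene had a joined promoter at all. The pericyte genes Pdgfrb and Cspg4 had 1 intronic member each. The few markers do not check the cell type, since a dense region is not a transcript.

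Housekeeping machinery is given beside 14.6% of all genes with a joined region and 37.4% of all genes with a joined promoter. Of the reference genes 6 of 8 had a promoter member, among them Gapdh with 47, 63 and 60 reads in NC, TGF-b and siRNA, Eef1a1 with 36, 63 and 60, and Pgk1 with 23, 73 and 30. Translation initiation factors had 13 of 38 (34.2%), splicing factors 15 of 45 (33.3%) and cytosolic ribosomal proteins 9 of 32 (28.1%), and these were 13 of 26, 15 of 32 and 9 of 23 genes with a joined promoter, the last (39.1%) close to the 37.4% of all genes. Hsp90b1, a chaperone of the endoplasmic reticulum, held 76, 112 and 40 reads and Dnajb1 49, 101 and 27, in a chaperone list with 10 of 49. Respiratory chain subunits had 9 of 44, RNA polymerase II and Mediator subunits 8 of 44 and proteasome subunits 4 of 28. The intervals of the chaperones, the respiratory chain, RNA polymerase II and the proteasome hold the 14.6%, and their shares of genes with a joined promoter, 35.7%, 36.0%, 36.4% and 28.6%, were below that of all genes. Proteasome promoters had lower density with TGF-b in all 4 cases, from Psmd3 with 70, 52 and 26 reads to Psmd13 with 31, 21 and 12, though each interval includes 0 and all 4 ratios turn positive when centred on the table's median. Psma1, Psmd4 and Psmd8 had 5′ UTR members, of which those of the last 2 are given. That of Psmd4 held 44, 29 and 20 reads, and that of Psmd8 had the opposite sign, with 25, 47 and 21 reads and a log2 ratio of 0.89 (0.19 to 1.58). Zinc finger genes had 39 of 240 (16.2%, 12.1 to 21.4%), also near the share of all genes, with Zfp367 at 52, 168 and 83 reads. Replication-dependent histones had 0 of 12, although 8 of those genes had a joined promoter region. Chemosensory receptor genes had 0 of 171, with an upper Wilson bound of 2.20%, and no satellite-like gene model had a joined region.

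**Figure D4:**
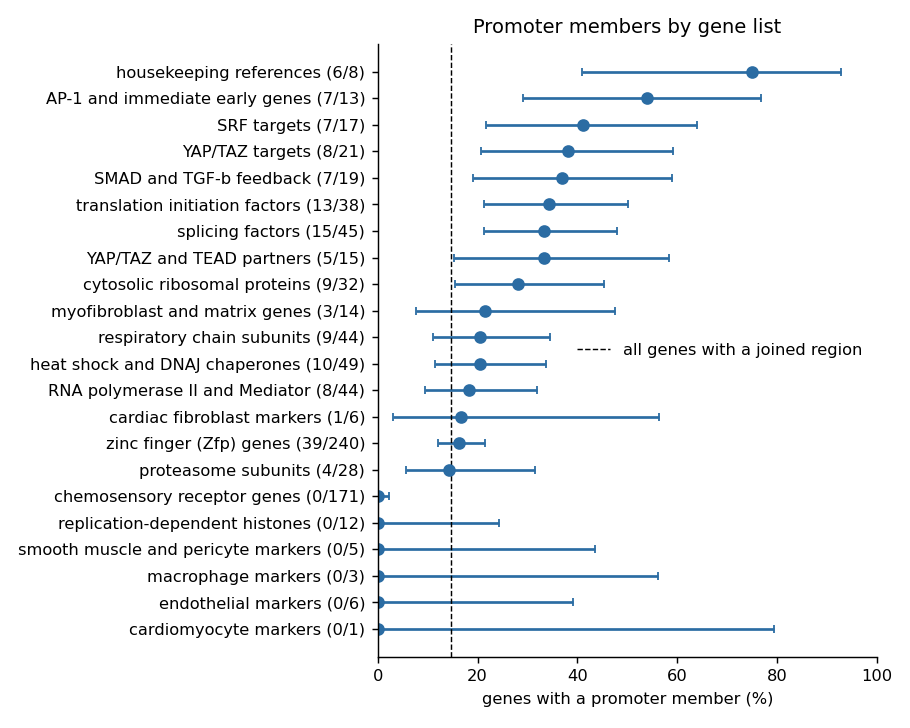
Genes with a promoter member as a percent of the list's genes with a joined region, with Wilson 95% intervals and the counts beside each list. The dashed line is the 14.6% of all genes with a joined region. Reference genes (6 of 8) and immediate early genes (7 of 13) lie highest, and chemosensory receptors (0 of 171) lie at 0.

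**Figure D5:**
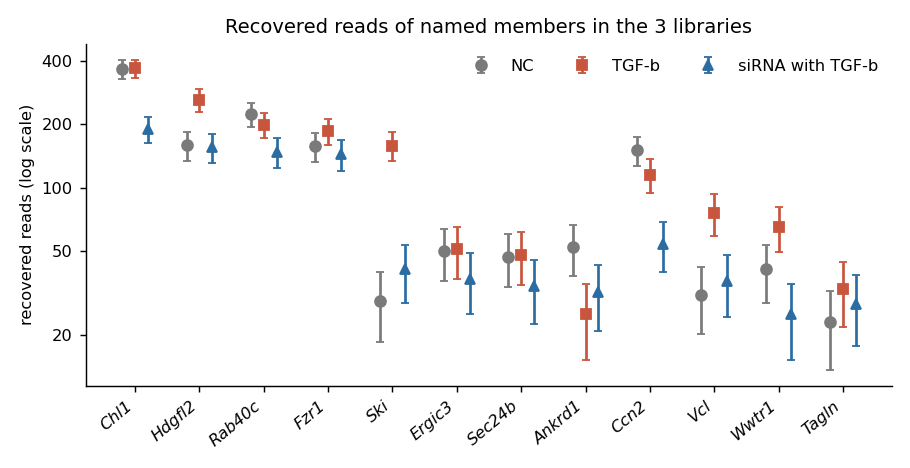
Recovered reads of the densest member of 12 named genes in the NC, TGF-b and siRNA libraries of the T set, on a log axis, with bars for the 95% counting error of each value (normal approximation). TGF-b is highest at Ski (158 against 29 and 41), which was picked for its ratio, the libraries overlap at Ergic3 and Sec24b, and the siRNA library is lowest at Ccn2 (54).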

How the data were processed

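CUT&Tag libraries were compared by the authors in pairs, and 4 tables were deposited. Per the study's methods reads were mapped to GRCm39 with Bowtie2 and peaks called with a tool given as Masc2, taken here to be MACS2, while the submitters' processing notes name BWA 0.7.12 and mm10. Other versions and settings are not given in the sources used here, and a described spike-in was not used here. The signal in the deposited tables is a normalized read density, (reads + 1) in a 2 kb window divided by the window, that the authors shifted along a line in mean log2 density and did not scale to library size. A search for the line that gives whole reads found slope -0.06 and intercept 0.26 in the first table, and 0.01 and 0.43 in the second, and 99.99% of regions came out whole within 0.1 read in each. The recovered TGF-b reads were equal in both tables for 6287 of the 6288 members. Columns of the authors' own log2 ratios and p-values were not used.

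Ratios are log2 of the 2 densities of a table, without a test. Shares carry Wilson 95% intervals, medians 95% rank intervals over regions, which are not replicates, and single ratios the Wilson interval of the read share. The members, lists and alternatives were chosen with earlier results of these data known. Named were the 10 densest members, the 5 highest and 5 lowest ratios of each comparison under 500 reads, the 5 most even of the 1572 densest, up to 4 promoter members for each of 24 gene lists, and 3 regions on either side of the threshold. The 12 densest members with a gene, further list genes and the component terms were added after values had been seen. The result of 1 list is not reported here. The recovery of reads was tested on simulated reads, and the overlap join against an exhaustive pairwise join of some real regions of chromosome 19. Python 3.11.15, numpy 2.4.6 and pandas 2.3.3 were used.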

Additional observations from a re-analysis of the deposited data

Results flagged for a closer look

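At members that overlap a region of the second S set table, the median log2 siRNA over TGF-b ratio was 0.18 (0.15 to 0.21) in the S set libraries and -0.15 in the T set libraries at the same 2726 members. The opposite signs drew attention, the siRNA has another name in each set, and the difference was not tested. The other joined regions with an S set region had the same S set median, 0.18 (0.14 to 0.22), so the value is not particular to the members. Over all S set regions of that table the median was -0.21.

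The mitochondrial genome, left out by the rule, held 13 joined regions with a median of 203859, 447201 and 200826 reads in NC, TGF-b and siRNA. It drew attention because a signal outside the members stood above the NC level in the TGF-b library, and with 1 library per treatment this was not tested.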

How the results depend on the processing

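Of the alternative values computed for the number of members, the promoter share, both median ratios, the list genes and the S set overlap, 30 stayed close to the reported value and 17 moved. Close meant within 1.5 times for numbers of members and genes, and within the 95% interval of the reported value for shares and medians. None of the medians over all members changed sign. With a density threshold of 5 there were 10572 members, 32.3% of them at promoters within 1 kb, with a median log2 TGF-b over NC ratio of 0.14 and S set overlap of 24.3%. With a threshold of 10 there were 3899 members, 44.5% at promoters and 37.4% with an S set region. With a threshold of 15 there were 1691 members, 50.7% at promoters, a median TGF-b over NC ratio of 0.22, 44 list genes with a promoter member in place of 147, and an S set overlap of 49.9%. With 1 member per locus the S set overlap was 32.4%. Counting members within 1 kb of a start in place of the annotation gave 53.2%. With the authors' line undone the median siRNA over TGF-b ratio was -0.56. Centring on the median of each table gave 0.82 for TGF-b over NC and -1.03 for siRNA over TGF-b. The difference between promoters and regions with no gene, followed after the data had been seen, ran from 0.46 to 0.55 for TGF-b over NC and from -0.37 to -0.27 for siRNA over TGF-b under all alternatives, each of which keeps to members, and the other joined regions had the reverse order in both comparisons. The share of members at least 1.5-fold higher with TGF-b was 26.2% and at least 4-fold higher 0.207%. No paired analysis was possible because each treatment had 1 library. Read depth limits single members, whose median of 24 to 36 reads leaves wide intervals on a ratio, and no replicate error can be given.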
